A study of Mus musculus with 50 samples.

Results

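The hard keratins of nail and hair were followed through 41 mouse digits whose distal terminal phalanx (P3) had been amputated. A list of 10 genes defined the family by name and not by a cut on measured values. It was chosen with earlier results of these data known, and 9 of the 10 were measured here among 21954 genes. The 9 were the type I (acidic) keratins Krt31, Krt33a, Krt33b, Krt34, Krt35 and Krt36 and the type II (basic) keratins Krt81, Krt84 and Krt86. All digits came from male C57Bl/6 mice, 9 to 10 weeks of age, in which digit 3 of both hindlimbs was amputated, so that digits of 1 animal may stand in different groups. RNA was taken from the mixed tissue of the wound bed. The 29 digits labelled NR (non-regenerative) were collected at 0, 3, 6, 12 and 24 h and at 3, 7, 14 and 21 days, 3 digits at each time except 7 days, which had 5. Their labelled amputation levels ran from 60 to 80% of the phalanx, and 17 of the 29 lay above 67%, the level above which the study calls a digit non-regenerative. The 12 intermediate digits, labelled Medium, had lost 41 to 55% and were collected at 0 and 24 h and at 14 and 21 days, with 3 digits each. Uninjured digits were not analysed here, and 0 h stands for tissue taken at the time of amputation. The 9 macrophage libraries of the series were grown from bone marrow of female C57BL/6 mice 6 to 8 weeks old and served as cells without nail, with 3 untreated (MO_Baseline), 3 given IFN-γ and LPS (M1_24h) and 3 given IL-4 (M2_24h). In 5 pairs, digits of different groups carry the same mark, date and side in their labels, and the labels do not say what the mark stands for. Among them are NR 0 h replicate 1 with NR 12 h replicate 3, and NR 7 days replicate 1 with NR 3 days replicate 3.

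Hard keratins, also called trichocyte keratins, are the filament proteins of nail plate and hair shaft. A type I and a type II chain pair to form each filament, and the filaments are embedded in a matrix of keratin-associated proteins rich in cysteine or in glycine and tyrosine. They are made by keratinocytes that leave the nail or hair matrix and harden, whereas the epidermis around them makes the soft keratins such as Krt14 in the basal layer and Krt10 above it. Krt35 appears early, in the matrix and the zone just above it. Krt31, Krt33a, Krt33b, Krt34, Krt81 and Krt86 are best known from the hair cortex. Krt36 and Krt84 are best known from nail and from the filiform papillae of the tongue. In digit skin both nail and hair follicles can contribute to the RNA, and in bulk tissue fewer cells of a type and less RNA per cell cannot be told apart.

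The type I members lay side by side on chromosome 11 of GRCm38 on the minus strand, from Krt33a (chr11:100011195-100016212) to Krt36 (chr11:100102007-100105626). The type II members lay on chromosome 15, with Krt81 (chr15:101459061-101463751) and Krt84 (chr15:101525026-101532820) on the minus strand and Krt86 (chr15:101473478-101479986) on the plus strand. None of the 9 overlapped another annotated gene. RefSeq promoters (GRCm38.p6) were matched for 5 of the 9, namely Krt31, Krt33b, Krt34, Krt36 and Krt84, and the 100 bases before each start are shown because the first 3 varied together and the last 2 varied together across digits. Capitals mark the letters TATAAA, the core of a TATA box.
Krt31, chr11:100050552-100050651, minus strand: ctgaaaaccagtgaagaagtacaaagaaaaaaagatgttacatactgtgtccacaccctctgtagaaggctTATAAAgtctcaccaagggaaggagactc
Krt33b, chr11:100029869-100029968, minus strand: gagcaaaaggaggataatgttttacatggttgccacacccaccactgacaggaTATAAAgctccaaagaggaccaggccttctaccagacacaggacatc
Krt34, chr11:100041555-100041654, minus strand: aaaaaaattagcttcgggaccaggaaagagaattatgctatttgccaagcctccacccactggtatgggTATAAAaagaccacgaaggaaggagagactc
Krt36, chr11:100105627-100105726, minus strand: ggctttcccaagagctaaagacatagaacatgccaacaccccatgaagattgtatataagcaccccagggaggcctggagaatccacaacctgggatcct
Krt84, chr15:101532821-101532920, minus strand: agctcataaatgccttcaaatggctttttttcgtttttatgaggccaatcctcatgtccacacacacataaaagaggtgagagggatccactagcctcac
On either strand, TATAAA was present within 60 bases of the start in Krt31, Krt33b and Krt34, 3 of 5, against 3.92% of 32851 promoters, and within 250 bases in these and Krt84, 4 of 5, against 12.4%. The letters CTTTGA or CTTTGT, the core bound by LEF/TCF factors, were present within 60 bases in 0 of 5, against 6.4% of all promoters, and within 250 bases in Krt31, Krt33b and Krt34, 3 of 5, against 27.6%. A match of letters describes the sequence and is not a bound site.

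Members also differed in how far their reads could be told apart. Of all windows of 65 bases, the read length, the share found identically in another gene was 0% for Krt36 and Krt84 and 1.9% for Krt35. It was 13% for Krt33a, 15.8% for Krt33b, 22.8% for Krt31, 27.8% for Krt34, 33.0% for Krt81 and 37.0% for Krt86. Krt81 and Krt86 shared 587 windows, and their coding sequences were identical over an unbroken run of 374 bases. The exon 5 part of that run, 165 bases, is shown with the length of 1 read in capitals. It lies at chr15:101460970-101461134 in Krt81 and at chr15:101476463-101476627 in Krt86.
Krt81 and Krt86, exon 5: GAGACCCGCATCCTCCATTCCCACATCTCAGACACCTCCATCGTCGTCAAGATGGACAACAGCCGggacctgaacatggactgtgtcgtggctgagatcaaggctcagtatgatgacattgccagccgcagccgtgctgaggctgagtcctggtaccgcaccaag
A read from such a stretch was divided between genes by estimation, so the levels of Krt81 and Krt86, and to a lesser degree those of the Krt31 to Krt34 genes, are uncertain relative to each other. Krt35, Krt36 and Krt84 carry little or no such uncertainty.

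CPM is a gene's counts scaled to library size, with TMM factors over the 41 digits, and serves to compare digits for 1 gene. The authors' normalized TPM is corrected for gene length and serves to compare genes. On the second scale Krt36 was the most abundant member in 32 of 41 digits, Krt86 in 4, Krt81 in 2, Krt84 in 2 and Krt33b in 1. By mean normalized TPM over all digits the order ran Krt36, Krt84, Krt81, Krt86, Krt33b, Krt31, Krt34, Krt35 and Krt33a. Every digit held at least 3 counts of Krt31, Krt33b, Krt36, Krt81, Krt84 and Krt86, while Krt34 reached 3 counts in 40 digits, Krt35 in 39 and Krt33a in 35. In the 9 macrophage libraries no member exceeded 1 count, which is under the floor of 3 counts.

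The amount of hard keratin RNA differed widely between digits of the same group. The 9 members together took from 0.00293% to 1.34% of all counts in a digit, with a median of 0.312%. Their summed CPM ran from 31.9 in an NR digit at 7 days to 13872 in an NR digit at 21 days, a 435-fold range. At 14 days the 3 NR digits held 8145, 10162 and 132 CPM, and at 21 days 4575, 13872 and 184 CPM. The standard deviation within groups, pooled over the 13 groups on the log2(CPM + 1) scale, was between 1.45 for Krt35 and 2.26 for Krt36. These values lay at the 98.9th to 99.9th percentile of 13751 genes with a mean of at least 1 CPM, whose median was 0.65. For 8 of the 9 members, every pair of neighbours in the order of the 13 group means had overlapping ranges. For Krt35, 1 of the 12 neighbouring pairs did not overlap.

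**Figure D1:**
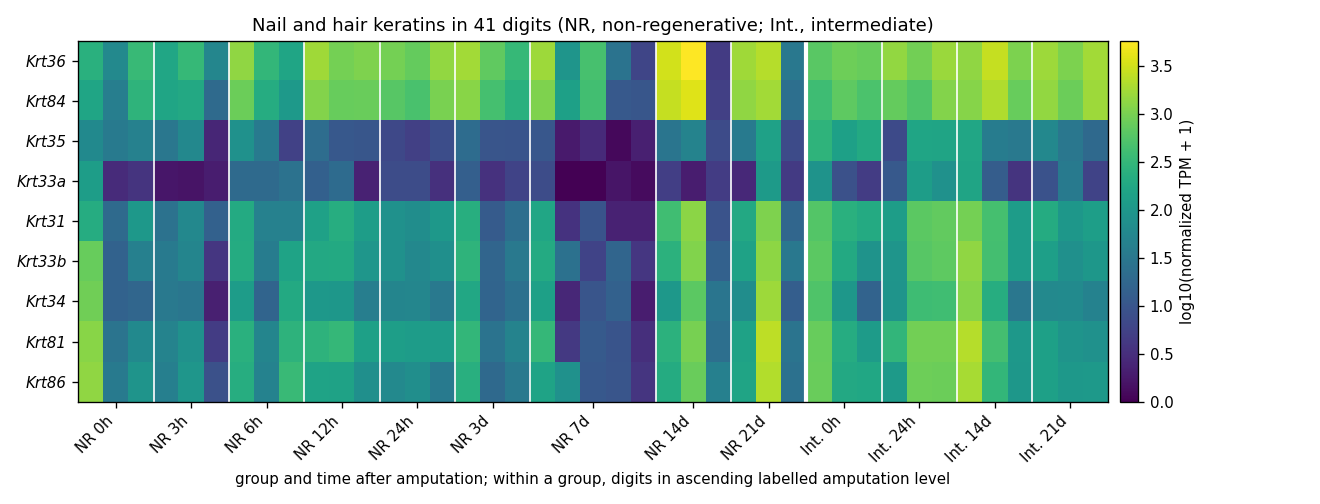
Normalized TPM of the 9 keratins (rows) in 41 digits (columns), as log10(value + 1), with digits grouped by group and time and ordered by labelled amputation level within each. Krt36 and Krt84 are high in most digits and Krt33a is low in most. Some single digits, such as NR 7 days replicate 1, are the highest of their group in all rows. Others, such as NR 0 h replicate 1, are highest in the cortex keratins but not in Krt36 or Krt84.

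Across digits the members did not vary as 1 block. Krt36 and Krt84, a type I and a type II chain encoded on different chromosomes, had a Spearman correlation of 0.99 over 41 digits. Krt31, Krt33b, Krt34, Krt81 and Krt86 correlated with each other at 0.87 to 0.96, and with Krt36 or Krt84 at 0.59 to 0.76. Krt35 correlated with Krt36 at 0.36 and with Krt84 at 0.38, and with the 5 cortex keratins at 0.54 to 0.73. Krt33a correlated with both Krt36 and Krt84 at 0.29 and with the 5 at 0.61 to 0.72. These are descriptions over digits that share library depth and tissue composition. Krt81 and Krt86, which share 587 windows, correlated at 0.91, while Krt33b and Krt34, which share none with Krt81, correlated with it at 0.96 each, and the part of shared reads was not tested. Krt36 and Krt84 share no window with another gene, and Krt35 shares 1.9% of its windows.

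**Figure D2:**
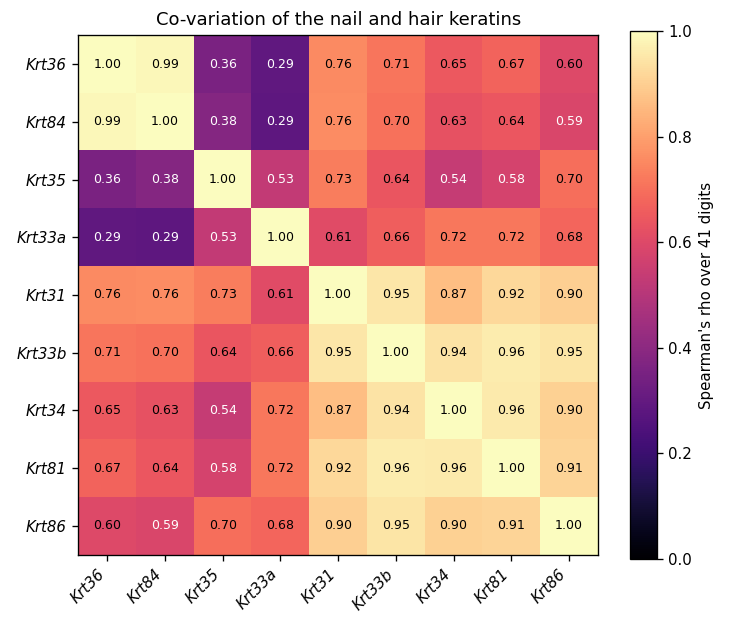
Spearman's rho between the 9 keratins over 41 digits (colour and printed value, CPM). Krt36 with Krt84 reads 0.99, the square of Krt31, Krt33b, Krt34, Krt81 and Krt86 reads 0.87 to 0.96, and Krt35 and Krt33a with Krt36 or Krt84 read 0.29 to 0.38.

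The makeup of the hard keratins within a digit followed from these blocks. Krt36 and Krt84 made up from 5.76% to 95.2% of the members' normalized TPM, with a median of 67.1%, and more than 50% in 30 of the 41 digits. At 0 h the 3 NR digits ran from 8.06% to 63.8%. At 24 h the 3 NR digits ran from 76.3% to 86.8%. Genes of the keratin-associated proteins, 56 in the table, summed to between 0.130 and 3.41 times the CPM of the 9 keratins. That multiple correlated with the share of Krt36 and Krt84 at a Spearman rho of -0.82 over 41 digits, as a description of 2 quantities that both have the keratins in their denominator.

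The nail and tongue type keratins Krt36 and Krt84 were higher in NR digits at 12 and 24 h than at the time of amputation. Labelled above 67% were 1 of the 3 digits at 0 h, 0 of the 3 at 12 h and 2 of the 3 at 24 h. The 12 h digits, labelled 64 to 67%, thus did not exceed the study's limit, and no fit of digits above 67% was possible at that time. Krt36 held 233, 57.8 and 335 CPM in the 3 digits at 0 h. It held 1708, 965 and 1094 CPM at 12 h. It held 952, 745 and 1414 CPM at 24 h. All 3 digits at each of these times lay above all 3 digits at 0 h. So did 21.4% of 13751 genes at 12 h and 20.1% at 24 h, against 2 of the 9 members. The fitted change was 6.06-fold at 12 h (log2 fold change 2.60 ± 0.57 SE, adjusted p = 0.0181, edgeR) and 4.99-fold at 24 h (2.32 ± 0.56, adjusted p = 0.0269). Krt84, the type II keratin that varied with Krt36 across digits, held 240.5, 61.3 and 424 CPM at 0 h. It held 1834.5, 1204 and 1248 CPM at 12 h and 950.3, 756 and 1554 CPM at 24 h. The groups again did not overlap, and the change was 5.94-fold at 12 h (2.57 ± 0.59, adjusted p = 0.0220) and 4.51-fold at 24 h (2.17 ± 0.61, adjusted p = 0.0431).

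Krt35, the keratin of the matrix and the zone above it, moved the other way in the same digits. It held 63.8, 36.9 and 47.7 CPM in the 3 NR digits at 0 h. It held 22.0, 10.6 and 9.57 CPM at 12 h. It held 6.49, 4.91 and 6.83 CPM at 24 h. All digits at both times lay below all 3 digits at 0 h. So did 19.8% of 13751 genes at 12 h and 18.5% at 24 h, against 1 of the 9 members. The fall was 3.51-fold at 12 h (log2 fold change -1.81 ± 0.36, adjusted p = 0.0132) and 8.14-fold at 24 h (-3.02 ± 0.28, adjusted p = 0.00054, edgeR). Krt35 made up 1.19 to 14.03% of the members' normalized TPM at 0 h and 0.241 to 0.283% at 24 h.

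At 12 h, 2 of the 9 members were thus called higher and 1 lower, with 11.4% of 13075 tested genes called in either direction. At 24 h the same 3 genes were called in the same directions, with 10.7% of all tested genes called. Both comparisons share the 0 h digits. The remaining 6 members had adjusted p-values between 0.258 and 0.693 at 12 h and between 0.102 and 0.746 at 24 h. When all 41 digits shared 1 estimate of the spread, none of the 3 calls held, with adjusted p-values of 0.352 to 0.408 at 12 h and 0.151 to 0.491 at 24 h. Leaving out 12 h replicate 3 ended all 3 calls at 12 h (adjusted p 0.0541 to 0.0619), leaving out 12 h replicate 1 or 24 h replicate 1 or 3 ended those of Krt36 and Krt84, leaving out 24 h replicate 2 or 0 h replicate 1 ended that of Krt84 at 24 h (0.0570 and 0.0627), as did limma on the normalized TPM (0.0572). Digits labelled above 67% left 1 digit at 0 h and 2 at 24 h, a fit in which the lone digit is assumed to vary like the others and in which 0% of genes and no member were called.

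The labels' dates fall in an earlier period (July to August) and a later one (November to January). All 3 digits at 12 h were from the earlier period and only 0 h replicate 1 was, so the pooled comparison mixes periods. Within the earlier period, Krt36 was at 233 CPM at 0 h and 965 to 1708 CPM at 12 h, Krt84 at 240.5 and 1204 to 1834.5 CPM, and Krt35 at 63.8 and 9.57 to 22.0 CPM. With the label date as a block, added after the data were seen, the change at 12 h rests on 0 h replicate 1 alone against the 3 digits of its date, and 6.38% of genes were called. In that fit Krt35 stayed called (-2.18, adjusted p = 0.0193), Krt36 (2.44, 0.111) and Krt84 (2.58, 0.113) were no longer called, and Krt33a, Krt34 and Krt86 were called lower (-3.34, -3.36 and -3.39). Krt33b and Krt81 were also lower in that fit (-2.18 and -2.29) and failed only the 2-fold rule, which took group means over all dates. At 24 h the direction of Krt36, Krt84 and Krt35 was the same within both periods. In the later one Krt36 was at 57.8 and 335 CPM at 0 h and at 745 CPM at 24 h, and Krt35 at 36.9 and 47.7 against 4.91 CPM. Over all 41 digits no member was called for the period, with 8.23% of genes called, none of the 9 at an unadjusted p under 0.05 and none by DESeq2. Groups with dates of 1 period only add nothing to that test. These are NR 3 h, 12 h and 21 days and intermediate 21 days, so it does not bear on the 12 h digits. The period's log2 effect, later minus earlier, was -0.93 ± 0.61 for Krt36, -0.82 ± 0.61 for Krt84 and -0.18 ± 0.54 for Krt35.

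**Figure D3:**
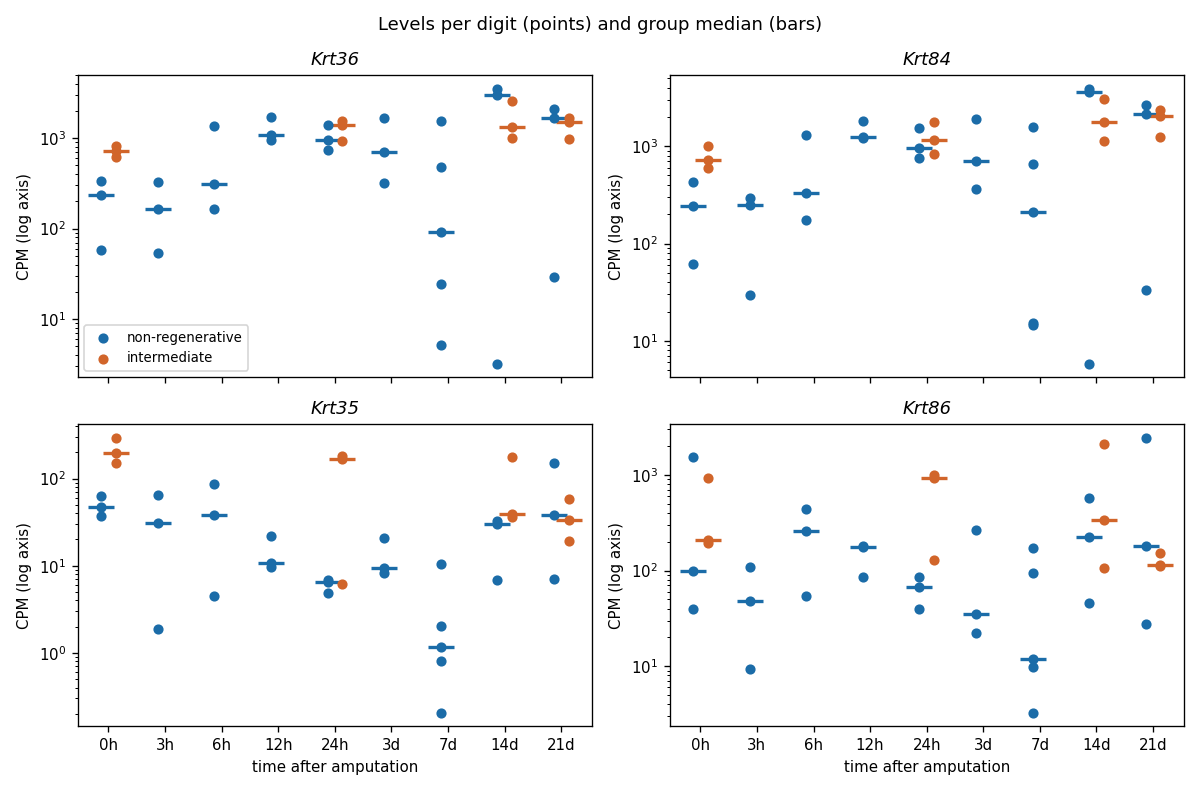
CPM of Krt36, Krt84, Krt35 and Krt86 (log axes) in each digit by time after amputation, with the group median as a bar. In NR digits Krt36 and Krt84 lie above their 0 h range at 12 and 24 h while Krt35 lies below its own, and at 7, 14 and 21 days the NR digits are spread over the whole axis.

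The opposite movement of the 2 genes can be read within each digit, where sequencing depth cancels. The ratio of Krt84 to Krt35 counts was 1.66, 3.77 and 8.90 in the 3 NR digits at 0 h. It was 4.57 to 18.7 at 3 h and 8.52 to 38.4 at 6 h. It was 83.5 to 131 at 12 h and 146 to 225 at 24 h. The digits at 12 and 24 h had ratios above all digits at 0, 3 and 6 h, and the ratio at 3 days was 44.5 to 90.4. It was 11.9 to 324 at 7 days, 0.867, 120 and 121 at 14 days and 4.79 to 56.5 at 21 days. Krt84 exceeded Krt35 in 40 of 41 digits. The ratio was chosen after the values of both genes were seen, and it is given without a test.

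**Figure D4:**
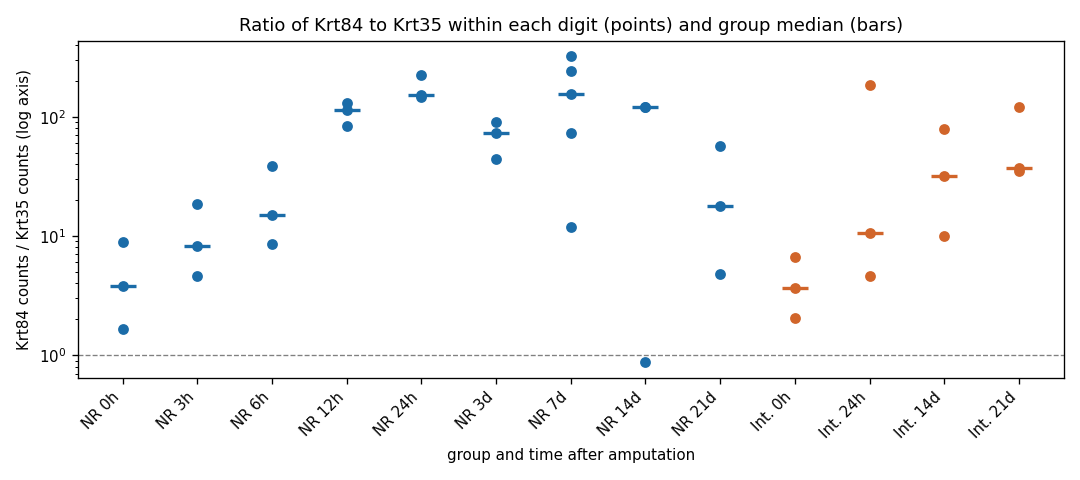
Ratio of Krt84 to Krt35 counts within each digit (points, log axis) with the group median (bars) and a dashed line at 1. NR digits climb from 1.66 to 8.90 at 0 h to 146 to 225 at 24 h, intermediate digits range from 4.62 to 186 at 24 h, and 1 NR digit at 14 days lies below 1.

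For most hair cortex keratins a single digit at the time of amputation set the direction at 12 and 24 h. Krt86 held 1550.5, 39.8 and 99.3 CPM in the NR digits at 0 h and 179, 175 and 85.9 CPM at 12 h. Krt81 held 1328, 29.8 and 65.8 CPM at 0 h and 300.3, 356.5 and 151 CPM at 12 h. The high digit in both was 0 h replicate 1, which also led in Krt31, Krt33a, Krt33b and Krt34. With it, the log2 fold changes at 12 h were 0.63 for Krt31, -1.81 for Krt33a, -0.71 for Krt33b, -1.83 for Krt34, -0.81 for Krt81 and -1.93 for Krt86, none of them called. Without it all 6 were above 0, at 1.48, 2.35, 2.51, 2.40, 2.501 and 1.084. At 24 h they were -0.34, -2.96, -1.90, -2.65, -1.78 and -3.14 with it and 0.51, 1.197, 1.32, 1.59, 1.53 and -0.11 without it, in the same order of genes. Without it, Krt33b, Krt34 and Krt81 were called higher at 12 h (SE 0.48, 0.40 and 0.45, adjusted p = 0.00864, 0.00502 and 0.00657), in a fit in which 13.9% of genes were called. They were also called higher at 24 h (SE 0.40, 0.26 and 0.30, adjusted p = 0.0481, 0.00585 and 0.0108), with 12.4% of genes called. Krt31, Krt33a and Krt86 were called at neither time in either fit. With 0 h replicate 1 left out, Krt35 stayed called lower (-1.60 at 12 h and -2.80 at 24 h) and Krt36 stayed called higher (2.68 and 2.40).

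At 3 h, 8 members passed the filter on low counts and Krt33a did not. None was called, as was no gene of all those tested (0%). All 8 had log2 fold changes below 0, from -3.65 to -0.15, and 3 of them had an unadjusted p under 0.05 (Krt34, Krt81 and Krt86). DESeq2 called none of the 8 (1.56% of genes). These directions too depended on 0 h replicate 1. Krt34 held 790, 13.7 and 15.4 CPM at 0 h and 31.1, 28.3 and 1.24 CPM at 3 h, and Krt81 held 52.7, 87.8 and 4.34 CPM at 3 h. Without that digit the log2 fold changes of all 9 ran from -1.33 for Krt33a to 0.52 for Krt34, and none was called (0.648% of genes). At 6 h none of 9 was called by either tool, with 4.85% of genes called by edgeR and 8.45% by DESeq2, no member at an unadjusted p under 0.05, and log2 fold changes from -1.35 to 1.55. Leaving out 0 h replicate 1 gave 1 call at 6 h, of Krt33a (3.26, adjusted p = 0.00417, 4.39% of genes called). Keeping only digits above 67%, which left 1 digit at 0 h and 2 at 6 h, gave the same call with 1.85% of genes called.

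From 3 days on, edgeR called no member in NR digits against 0 h. At 3 days none of 9 members was called (0.723% of genes called, 3 members at an unadjusted p under 0.05), with log2 fold changes from -2.68 to 2.108. Krt36 held 1679, 709 and 321 CPM (log2 fold change 2.108 ± 0.72, adjusted p = 0.309), overlapping the 0 h digits by the last value. Krt35 held 21.03, 9.52 and 8.26 CPM, all below the 0 h digits (-1.96 ± 0.38, adjusted p = 0.0703), and was called by DESeq2 (3.39% of genes called), without the filter on low counts (0.994%), or without 3 days replicate 1 (0.44%). At 7 days none was called (0.0537% of genes), with 3 at an unadjusted p under 0.05 and log2 fold changes from -4.89 to 1.05. The 5 digits held Krt36 at 1549.9, 92.2, 479, 24.6 and 5.16 CPM, in the order of labelled levels of 63, 65, 72, 73 and 75%. Their Krt35 was 10.5, 0.805, 2.008, 0.207 and 1.17 CPM, below every 0 h digit (-4.10 ± 0.95, adjusted p = 0.280), and DESeq2 (1.23% of genes called) and the fits of all 41 digits without and with a period term (1.09% and 1.15%) called it. Without 7 days replicate 1 no member was called (0.0154% of genes). Krt35 was the 1 member wholly below 0 h at 3 days and at 7 days, as were 8.14% and 4.15% of 13751 genes.

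At 14 days none of 9 was called (0% of genes), with 1 at an unadjusted p under 0.05 and log2 fold changes from -4.27 to 3.42, and DESeq2 called none (2.61% of genes). Krt36 held 3027 and 3533 CPM in 2 digits and 3.22 CPM in the third, which had the highest labelled level of the series (80%). The second of these, 14 days replicate 2, stood apart from all other libraries, with a TMM factor of 0.651 and 41536 CPM of Krt14 where the other 40 digits held at most 19671. Without it the log2 fold change of Krt36 was 2.88 ± 1.79 in place of 3.42 ± 1.71, that of Krt33b turned from 0.34 to -0.997 (SE 1.71), and no member was called, with 1.92% of genes called where none was with it. At 21 days none of 9 was called (0.452% of genes), with none at an unadjusted p under 0.05 and none by DESeq2 (1.84% of genes), and log2 fold changes from -0.12 to 2.72. The 2 digits labelled 79% at that time were the highest and the lowest of the group, at 2116 and 29.5 CPM for Krt36 and 2465 and 27.7 CPM for Krt86. From 7 to 21 days all 9 log2 fold changes were above 0, with a median of 3.62, and 5 had an unadjusted p under 0.05, but none was called after adjustment (0% of genes) and DESeq2 called only Krt35 (0.336% of genes).

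In 1 test of any difference over the 9 NR time points, 1 of 9 members was called, with 7.62% of genes called. This was Krt35 (adjusted p = 0.0371, edgeR), and Krt33a was next at 0.0503. DESeq2 called Krt33a, Krt35 and Krt86, with 30.5% of genes called. Leaving out single digits gave between 0 and 4 calls, the 4 (Krt31, Krt33a, Krt35 and Krt81) without 7 days replicate 1 (8.1% of genes called), and the adjusted p of Krt35 then ran from 0.00807 to 0.0766.

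Intermediate digits began with more Krt35, Krt36 and Krt84 than NR digits in every digit measured. Krt35 held 296, 151 and 198 CPM in the 3 intermediate digits at 0 h, above the 36.9 to 63.8 CPM of the NR digits (log2 difference 2.13 ± 0.29, adjusted p = 0.354, edgeR). Krt36 held 611, 824 and 728 CPM against 57.8 to 335 (1.80 ± 0.53, adjusted p = 0.993), and Krt84 601, 1002 and 725 CPM against 61.3 to 424 (1.69 ± 0.58, adjusted p = 0.993). These 3 of 9 did not overlap, where 5.46% of 13751 genes lay wholly higher. None of the 9 was called (0% of genes), 3 had an unadjusted p under 0.05, and DESeq2 called Krt35 (0.126% of genes). The other 6 members overlapped, with log2 differences from -0.45 to 1.63.

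Within the intermediate digits Krt84 rose and Krt35 fell between 0 h and 21 days. At 21 days Krt84 held 2032, 1232 and 2357 CPM, above all 3 digits at 0 h, a 2.45-fold rise (log2 1.29 ± 0.26, adjusted p = 0.0422). Krt35 held 57.5, 33.3 and 19.3 CPM, below all 3 at 0 h, a 5.70-fold fall (-2.51 ± 0.37, adjusted p = 0.0106). Krt36 held 1516.5, 990.5 and 1651 CPM, also above all 3, with a log2 fold change of 0.96 ± 0.21 that was not called (adjusted p = 0.0521). Krt86 lay below its 0 h range, at 153, 112 and 113 CPM against 926, 210.0 and 195 CPM (-1.79 ± 0.53, adjusted p = 0.139). So 1 of 9 was called higher and 1 lower, with 1.39% of genes called. Without overlap, 2 of 9 members lay higher and 2 lower, where 10.7% and 11.5% of 13751 genes did. Leaving out any 1 digit except 21 days replicate 2 ended the call of Krt84 (adjusted p 0.0731 to 0.169), limma on the normalized TPM did so too (0.103), and in 1 fit of all 41 digits neither call held (adjusted p of 1). All 3 digits at 21 days were from the earlier label period. Against the 2 earlier digits at 0 h, Krt35 was 151 and 198 CPM and Krt84 was 1002 and 725 CPM.

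At 24 h none of the 9 members was called against 0 h within the intermediate digits (0.0152% of genes called, 1 member at an unadjusted p under 0.05, none by DESeq2 with 2.65% of genes called). Krt36 held 1405, 938 and 1559 CPM, all above 0 h (0.85 ± 0.25, adjusted p = 0.189). It was the 1 member of 9 to lie wholly higher, where 11.7% of 13751 genes did. Krt35 was divided, at 6.18, 179.6 and 168 CPM. At 14 days none was called (1.68% of genes), 3 had an unadjusted p under 0.05, and DESeq2 called Krt36 and Krt84 (3.8% of genes). The digit with the highest hard keratins among intermediates, 14 days replicate 1 (labelled 42%), held 2109 CPM of Krt86 and 2364 CPM of Krt81, and without it Krt35 was called lower at 14 days (2.87% of genes called). This digit carries the same mark, date and side in its label as the NR digit of 80% at 14 days, which held 45.9 and 23.5 CPM of the same genes.

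At 24 h the intermediate digits held more of the cortex keratins than the NR digits. Krt86 held 129, 1000.2 and 941 CPM in the intermediate digits and 68.1, 85.3 and 39.3 CPM in the NR digits. Krt31, Krt33a, Krt33b, Krt34, Krt81 and Krt86, 6 of 9, lay wholly above the NR digits, where 8.70% of 13751 genes did. Krt36 and Krt84 were nearly level, with log2 differences of 0.33 ± 0.30 and 0.20 ± 0.35. By edgeR none of the 9 was called (0% of genes), with adjusted p-values of 0.272 to 0.833, although 7 had an unadjusted p under 0.05. DESeq2 called 7 of the 9 higher, with 1.19% of genes called, all but Krt36 and Krt84. With the label date as a block edgeR called none (0.00737% of genes).

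Of the intermediate digits, 24 h replicate 1 (labelled 41%) stood apart. Without it edgeR called the same 7 members higher, with 4.78% of genes called, among them Krt35 by 4.84 ± 0.21 (adjusted p = 6.64e-05), Krt86 by 3.91 ± 0.30 and Krt31 by 3.02 ± 0.21, while Krt36 stayed at 0.26 ± 0.32. That digit had 19671 CPM of Krt14, in the range of the NR digits at 24 h (14679 to 18194), while the other 2 had 6272 and 7874. The 7 keratins of the interfollicular epidermis summed to 61185 to 78367 CPM in the 3 intermediate digits and 41288 to 72948 CPM in the NR digits. It was also the only one of the 3 from the earlier label period. Within the later period, Krt86 was 85.3 CPM in the NR digit and 1000.2 and 941 CPM in the intermediate digits. Within the earlier period it was 68.1 and 39.3 CPM against 129 CPM. The part of epidermal content and of period in this difference was not tested.

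At 14 and 21 days no member was called between intermediate and NR digits (0% and 0.648% of genes), with 1 and 2 at an unadjusted p under 0.05, none by DESeq2 (0% and 1.49%), and log2 differences from -0.48 to 4.69 and from -3.44 to 0.22. Whether the change since 0 h differed between the groups was tested at 24 h, 14 days and 21 days, and no member was called by edgeR (0% of genes at each) or by DESeq2, with 0, 1 and 1 members at an unadjusted p under 0.05. For Krt35 at 21 days the difference of the changes was -2.93 ± 1.29 on the log2 scale, and for Krt36 at 24 h it was -1.47 ± 1.62.

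The labelled amputation level gave a common direction but no call. With the time point in the model, all 9 slopes were below 0, from -0.32 ± 0.38 for Krt34 to -0.90 ± 0.41 for Krt33a on the log2 scale per 10 percentage points removed. None was called (0% of genes), with adjusted p-values of 0.478 to 0.835, and 2 had an unadjusted p under 0.05 (Krt33a and Krt35, the latter at -0.75 ± 0.25). DESeq2 called none. With any 1 digit left out, 8 or 9 of the slopes stayed below 0. The members share digits and move together, so that 9 slopes are not 9 separate results. In 11 groups a single digit had the lowest level, and it was the one with the highest summed keratins in 5 of them. By member, the count ran from 3 for Krt36 to 7 for Krt33b and Krt35. Groups of 3 digits, or 5 at 7 days, give such matches often without any link to level.

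**Figure D5:**
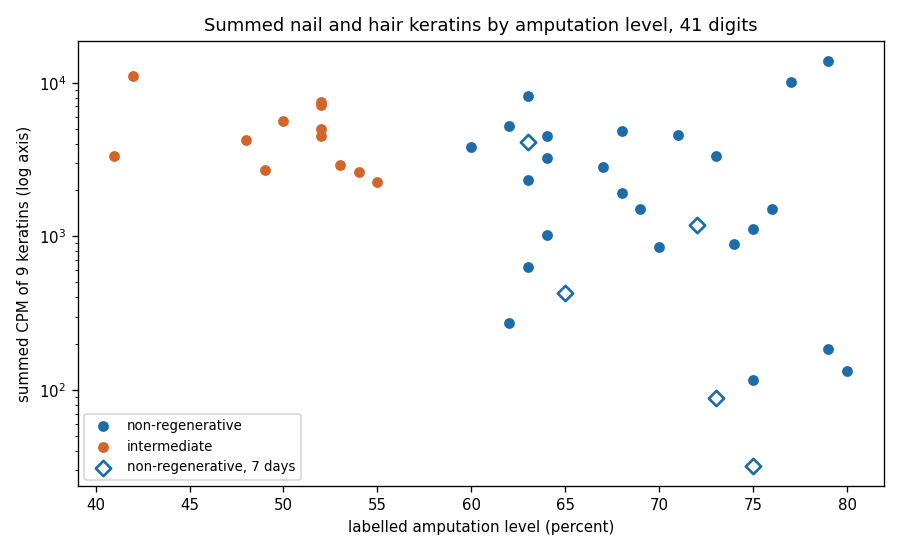
Summed CPM of the 9 keratins (log axis) against labelled amputation level in 41 digits, with NR digits at 7 days as open diamonds. All 12 intermediate digits lie between 2240 and 11065 CPM, while NR digits range from 31.9 to 13872 CPM.

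Genes outside the family differed in how closely they followed it. Among 9423 genes with a mean of at least 10 CPM, the levels most like the members' mean standardized level over 41 digits were those of Krt83 (Spearman rho 0.99) and Krt87 (0.98), 2 further hair keratins that share read windows with Krt81 and Krt86. Next were Klk15 (0.96), 1110025L11Rik (0.94) and the keratin-associated protein genes Krtap7-1 and Krtap11-1 (0.94 each), then Gm10229 (0.94), Gm10228, Krtap6-5 and Spink6 (0.93 each). The further hair keratins Krt82 and Krt39 stood at 0.88 and 0.87. Of 8 regulators of nail and hair at this level, Hoxc13, a homeobox gene known to control hair keratin genes, stood at 0.66 and rank 61, and Foxn1, the nude gene, at 0.62 and rank 68. The other regulators were lower, with Plcd1 at 0.43, Dlx3 at 0.27, Lgr6 at 0.11, Bmpr1a at 0.10, Fzd6 at 0.05 and Wls at 0.03. Of the cortex and cuticle genes, S100a3, a calcium-binding protein of the hair cuticle, stood at 0.80 and rank 49, Tchh at -0.08 and Tgm3 at -0.24. The inner root sheath keratins Krt27, Krt25 and Krt71 stood at 0.13, 0.11 and 0.03. The epidermal keratins ranged from Krt5 at 0.26 and Krt15 at 0.14 through Krt14 at -0.07, Krt2 at -0.18 and Krt10 at -0.25 to Krt1 at -0.34. For Krt36 and Krt84 alone the nearest genes were 2310079G19Rik (0.92) and Krtap13 (0.84). For Krt35 alone they were Selenbp1 (0.87), the hair cuticle keratin Krt82 (0.82), Cybrd1 (0.80) and S100a3 (0.79), none of which was among the 10 nearest to Krt36 and Krt84.

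The keratins of the inner root sheath, the follicle layer that moulds the hair shaft, were nearly absent from most digits. The 8 genes summed to a median of 3.97 CPM and exceeded 100 CPM in 8 of 41 digits, with the highest value, 1342 CPM, in an intermediate digit at 24 h (replicate 2). High hard keratin levels occurred both with and without them. Intermediate 14 days replicate 1 held 11065 CPM of the 9 hard keratins and 2.52 CPM of inner root sheath keratins, and NR 21 days replicate 2 held 13872 and 600.4 CPM.

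In the comparisons in which Krt36, Krt84 and Krt35 were called, related genes behaved as follows. At 12 h none of 4 tested other hair keratins and none of 32 tested keratin-associated protein genes was called. At 24 h none of 4 and none of 31 was called, and at 21 days in intermediate digits none of 5 and none of 34. The keratin-associated protein genes summed to 16666, 219 and 390 CPM in NR 0 h replicates 1 to 3. They summed to 2411, 2334 and 1339 CPM at 12 h and 840, 1215 and 599 CPM at 24 h. The 6 other hair keratins summed to 86.6 to 1264.5 CPM at 0 h, 470 to 1051 CPM at 12 h and 331 to 437 CPM at 24 h. Calls of these genes without 0 h replicate 1 were not examined. Of 12 tested regulators of nail and hair, 3 were called lower at 12 h and the same number at 24 h, and they were the same genes. Msx2 changed by -1.59 ± 0.38 and -1.18 ± 0.28, Dlx3 by -1.07 ± 0.24 and -1.25 ± 0.28, and Lgr6, a receptor on nail and hair stem cells, by -1.53 ± 0.36 and -1.61 ± 0.32. Hoxc13 did not pass the test (0.08 ± 0.25 and -0.25 ± 0.27). S100a3, 1 of 4 tested cortex and cuticle genes, was called lower at 24 h (-2.08 ± 0.52, adjusted p = 0.0298). Of the inner root sheath keratins, 1 of 1 tested (Krt73) was called lower at 12 h and 1 of 2 (Krt25) higher at 24 h. Both calls are at very low levels, as all 8 of these genes together summed to 3.39 to 4.97 CPM at 0 h. Their sum was 1.17 to 6.84 CPM at 12 h and 3.59 to 7.31 CPM at 24 h.

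The stress keratins of wounded epidermis and nail bed rose in NR digits from 6 h to 3 days. Krt6a, Krt6b, Krt16 and Krt17, 4 of 5 tested, were called higher at 6, 12 and 24 h, and Krt6a, Krt6b and Krt16 at 3 days, with median log2 fold changes of the 5 of 2.44 at 6 h and 2.74 at 3 days. The 4 had log2 fold changes of 3.56 to 4.27 at 12 h and 4.16 to 5.53 at 24 h. Of 6 tested epidermal keratins, Krt1 and Krt15 were called lower at 12 h, and at 24 h Krt15 was called lower and Krt14 higher. Krt14 held 4718 to 5606 CPM in NR digits at 0 h and 14679 to 18194 CPM at 24 h. The 7 listed epidermal keratins together did not follow Krt14. Their summed level was 47162 to 104023 CPM at 0 h (median 93553), 38755 to 54934 CPM at 12 h (median 53218) and 41288 to 72948 CPM at 24 h (median 56528), and the median log2 fold change of the 6 tested was -0.72 at 12 h and -0.945 at 24 h. The part of epidermal content in the rise of Krt36 and Krt84 and in the fall of Krt35 was not tested. In intermediate digits at 24 h none of the 5 stress keratins was called, with all 5 log2 fold changes above 0 and a median of 3.43. At 21 days none of these stress or epidermal keratins was called, and the log2 fold change of Krt14 was -0.01 ± 0.16.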

How the data were processed

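RNA-seq of 41 digits and 9 macrophage cultures was used. The authors aligned single-end reads with Bowtie to mouse genes (mm10) and deposited expected counts per gene from RSEM 1.2.3, and a signal column of normalized TPM, which is TPM scaled by median-by-ratio. Dates had replaced 26 gene names, which were restored. Totals ran from about 1468750 to 13011800 expected counts per digit. No replicate pair agreed within counting error.

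Expected counts were rounded and fitted over all genes with edgeR 4.0.16 (filterByExpr, TMM, glmQLFit, glmQLFTest) on the digits of each pair of groups. Calls needed an adjusted p-value (Benjamini-Hochberg) below 0.05 together with a more than 2-fold change of mean normalized count plus 1, the fold rule of the study, whose EBSeq was not used here. Models over time, interaction, level and period used the adjusted p-value alone. Spread and correlation were computed on log2(CPM + 1). The fits were tested on simulated data. Alternatives were DESeq2 1.42.0, no filter, no fold threshold, all 41 digits in 1 fit with and without label period, digits above 67%, single digits left out and, added after the data were seen, limma 3.58.1 on log2(normalized TPM + 1) and the label date as a block. The members, gene lists and tests were chosen with earlier results of these data known. The rule was to name all members in every comparison. Where none was called, the text gives counts and ranges, and the members named there were chosen after their values were seen. Other genes are named by list or by rank of correlation. Of the 10 listed genes, 1 is not reported here. P-values measure the spread between these digits, and the labels do not say which digits share an animal.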

Additional observations from a re-analysis of the deposited data

Results flagged for a closer look

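Of the 9 members, 6 had 1 NR digit at 7 days far above the other 4. It was replicate 1, the digit with the lowest labelled level of that group (63%) and the highest in all 9 members. The gap to the next digit, as a share of the group's whole range, was 0.953 for Krt31, 0.903 for Krt33a, 0.884 for Krt33b, 0.905 for Krt34, 0.824 for Krt35 and 0.972 for Krt81. The digit held 153, 6.39, 179.9, 126, 10.5 and 348 CPM of these genes, and the next held 8.30, 0.621, 23.3, 12.8, 2.008 and 12.2 CPM. Chance marks about 1 in 20 groups of normally distributed values in this way, while CPM is skewed. On log2(CPM + 1) the shares were 0.659, 0.759, 0.52, 0.53, 0.594 and 0.715 in the same order, and only those of Krt33a and Krt81 lay above the limit of 0.71. The 6 genes vary together, so they are 1 pattern in 1 digit. Krt36, Krt84 and Krt86 were not marked.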

How the results depend on the processing

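Counts of members called are given here out of 9. With DESeq2 they became 1 for intermediate against NR at 0 h, 2 for intermediate 14 days against 0 h, 7 for intermediate against NR at 24 h, 1 each for NR 3 days, NR 7 days and NR 21 against 7 days, and 3 over the 9 NR time points. With all 41 digits in 1 fit they became 0 for NR 12 h, NR 24 h and intermediate 21 days and 1 for NR 7 days, and the same with a period term, which also gave 1 for NR 21 against 7 days. Limma on normalized TPM, added after the data were seen, gave 1 for intermediate 21 days. Digits above 67%, of which 0 h holds 1, gave 0 for NR 24 h and 1 for NR 6 h. No filter on low counts gave 1 for NR 3 days and 2 over the NR time points, and a period term gave 2 there. The cause of these changes was not tested. Leaving out single digits gave 0 to 6 calls for NR 12 h, 1 to 5 for NR 24 h, 0 to 1 for NR 3 days, NR 6 h and intermediate 14 days, 1 to 3 for intermediate 21 days, 0 to 7 for intermediate against NR at 24 h and 0 to 4 over the NR time points. For the 3 called genes the log2 fold changes then ran, at NR 12 h, from -2.29 to -1.60 for Krt35, 2.13 to 3.10 for Krt36 and 2.09 to 3.24 for Krt84, and at NR 24 h from -3.20 to -2.80, 1.87 to 2.84 and 1.71 to 2.86. At intermediate 21 days they ran from -2.99 to -2.21 for Krt35 and 1.09 to 1.52 for Krt84. In these 3 comparisons no log2 fold change of these genes reversed in the alternatives run. With only digits above 67%, which left 1 digit at 0 h, Krt36 and Krt84 reversed at NR 6 h (-0.49 and -0.75, against 1.55 and 1.29). Both genes also reversed in that setting at NR 7 days (-0.99 and -0.89, against 1.05 and 1.04). No paired analysis was possible because the macrophage libraries, whose labels share replicate numbers, enter no test, and the digits carry none. The label date as a block, added after the data were seen, could be fitted for 4 comparisons whose groups share a date. It gave 4 calls for NR 12 h, where Krt35 kept its call and Krt36 and Krt84 lost theirs, and 0 for intermediate against NR at 0 h, 24 h and 14 days. In these fits the 2-fold rule took group means over all dates and not the change within a date. For intermediate against NR at 0 h, Krt33a, Krt81 and Krt86 failed that rule alone, with blocked log2 differences of -4.46, -2.90 and -2.92. Those values rest on NR 0 h replicate 1 alone, and in the same fit Krt35, Krt36 and Krt84 lay higher (1.46, 1.75 and 1.86). With 3 digits per group and a wide spread, a p above the threshold does not show that levels were equal.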
